A study of Mus musculus with 20 samples.

Results

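The cell composition of the mouse kidney 14 d after long ischemia with the caspase-1 inhibitor VX-765 was described cluster by cluster. The members were the 10610 cells that the deposited tables place in the VX-765 group, all from 1 library, out of 136794 cells in 20 libraries, and every one of the 19 named clusters was counted. They were set against the 14279 cells of IRI long at 14 d without inhibitor, 7229 in the library IRF9 and 7050 in the library IRF12.

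All animals were male C57BL/6J mice of 10 to 12 weeks. IRI (ischemia reperfusion injury) long means that both renal pedicles were clamped for 30 min. VX-765 was injected into the peritoneum at 100 mg/kg, starting 30 min before ischemia and then every 24 h for 14 d. The series also holds 1 library of IRI long with liproxstatin (10 mg/kg, same schedule), 6 control libraries without ischemia, and 2 libraries each for IRI short (23 min) and IRI long at 1, 3 and 14 d. The labels call the inhibitor mice a second set of experiments, and do not state that the 2 IRI long 14 d libraries received vehicle, so treatment and experiment cannot be told apart. How many mice the VX-765 library came from is not given in the labels. Since VX-765 has 1 library, its own spread was not measured. Libraries held 2064 to 14320 cells, which set the counting error of a share. Intervals of shares below cover counting error only. Intervals of logit changes or differences come from the spread between libraries in the groups with 2 or more. The tables hold no UMI counts, so cluster names could be checked only against the names that the same cells carry in the authors' earlier annotation of the 18 libraries without inhibitor.

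VX-765 is a prodrug whose active form blocks caspase-1, the protease that inflammasomes switch on. Caspase-1 cleaves gasdermin D, which opens pores in the membrane and leads to pyroptosis, and it turns the precursors of interleukin-1 beta and interleukin-18 into active cytokines. Proximal tubule (PT) cells, which reabsorb most of the filtrate and need much oxygen, are the cells most damaged by ischemia, and neutrophils and monocytes enter the kidney after such damage.

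The VX-765 library consisted mostly of PT cells, while the IRI long 14 d libraries consisted mostly of immune cells. The PT clusters PCT, PST and PT together made up 58.8% of the VX-765 library (95% binomial Clopper-Pearson interval 57.9 to 59.8). They made up 5.11% of IRF12 and 11.2% of IRF9, so that the share was 7.20-fold that of the mean of both. These shares follow the cluster names. In the 2 IRI long 14 d libraries, 323 cells of the cluster DCT1, 258 of Neutro_2 and 67 of Neutro_1 were named PT S3 in the earlier annotation. They are not counted as PT here. In the other direction, 369 of the 540 cells in the cluster named PT had an immune name earlier. Immune cells were 11.8% after VX-765 against 75.2% in IRF12 and 64.5% in IRF9, a 5.94-fold lower share. The myeloid part of these was 7.71% after VX-765, 65.0% in IRF12 and 51.1% in IRF9, and the lymphoid part 4.05%, 10.3% and 13.3%. Other tubule cells, from the loop of Henle to the collecting duct, were 21.9% after VX-765, 9.12% in IRF12 and 9.35% in IRF9. Clusters named as endothelial or stromal held 6.85%, 9.96% and 14.0% of these libraries. In all 6 compartments the VX-765 library lay outside the values of both IRI long 14 d libraries.

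**Figure D1:**
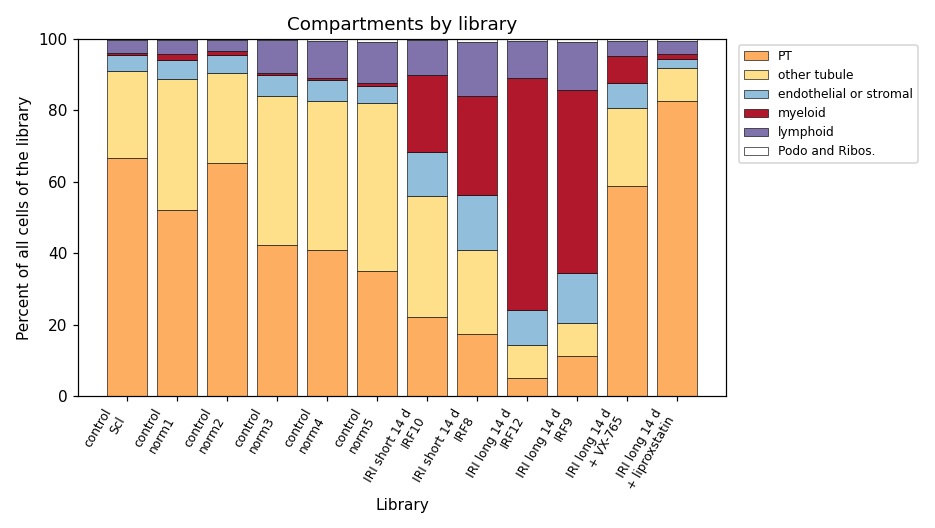
Stacked bars give the percent of all cells of a library (vertical axis) in each compartment for the control, IRI short 14 d, IRI long 14 d and inhibitor libraries (horizontal axis). PT cells were 58.8% of the VX-765 library and 5.11 and 11.2% of the IRI long 14 d libraries, and myeloid cells 7.71% against 65.0 and 51.1%.

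The compartments were compared with limma on the logit of the share, with 1 mean for each of 9 groups, so that the spread came from the groups with 2 or more libraries and the VX-765 library was assumed to vary like them. Of 6 compartments 3 passed an adjusted p of 0.05 (50.0% called). PT rose (16.7% of the compartments called higher) with a logit change of 2.85, a standard error of 0.59 and a limma adjusted p of 0.000341. In the other direction 2 passed (33.3%). These 2 overlap, since immune cells are the myeloid and lymphoid cells together, and so are not separate results. Immune cells were lower by −2.87 (standard error 0.49) and myeloid cells by −2.81 (standard error 0.46), both with limma adjusted p = 7.2e-05. Other tubule (1.02), lymphoid (−1.15) and endothelial or stromal cells (−0.60) did not pass, each with limma adjusted p = 0.0602. Other tubule and lymphoid cells passed with the spread taken without the control libraries (limma adjusted p = 0.0256 and 0.0102). An exact permutation test of 1 against 2 libraries cannot give a p under 0.333 and was not used.

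These shares add up to 100% in each library, so a lower share of immune cells raises all others. Among non-immune cells, PT cells made up 66.7% after VX-765, against 20.6% in IRF12 and 31.6% in IRF9. Other tubule cells were 24.9% of the non-immune cells, below the 26.3 and 36.8% of the IRI long 14 d libraries. Among non-PT cells the order was the reverse, with other tubule cells at 53.3% after VX-765 against 9.61 and 10.5%. The logit change of other tubule cells per non-PT cell was 2.32 (limma adjusted p = 2.45e-06). Immune cells were 28.6% of non-PT cells after VX-765, against 79.3% in IRF12 and 72.6% in IRF9, with a logit change of −2.08 (limma adjusted p = 1.09e-05).

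When the 19 clusters were taken one by one, 8 were above both IRI long 14 d libraries after VX-765 (42.1%), 8 were below both (42.1%), and DCT1, GEC/Endo and SMC lay between them. All 8 of the higher clusters were at least 2-fold above the nearer library, and 6 of the 8 lower ones at least 2-fold below it. With limma 10 of the 19 passed (52.6% called), 6 higher (31.6%) and 4 lower (21.1%). Without IRF12 only CD-IC, PST and Neutro_1 still passed, and without IRF9 the count was 7. With immune clusters expressed per immune cell and other clusters per non-immune cell, only Fibro and Ribos. passed, both lower. By earlier names, 99.1% of Fibro and 97.8% of Ribos. cells of IRI long 14 d were immune. Both clusters were nevertheless taken per non-immune cell here. With Fibro counted as immune, it was 15.3% of immune cells after VX-765, against 8.35% in IRF12 and 12.0% in IRF9. That logit change was 0.48 (limma adjusted p = 0.513).

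**Figure D2:**
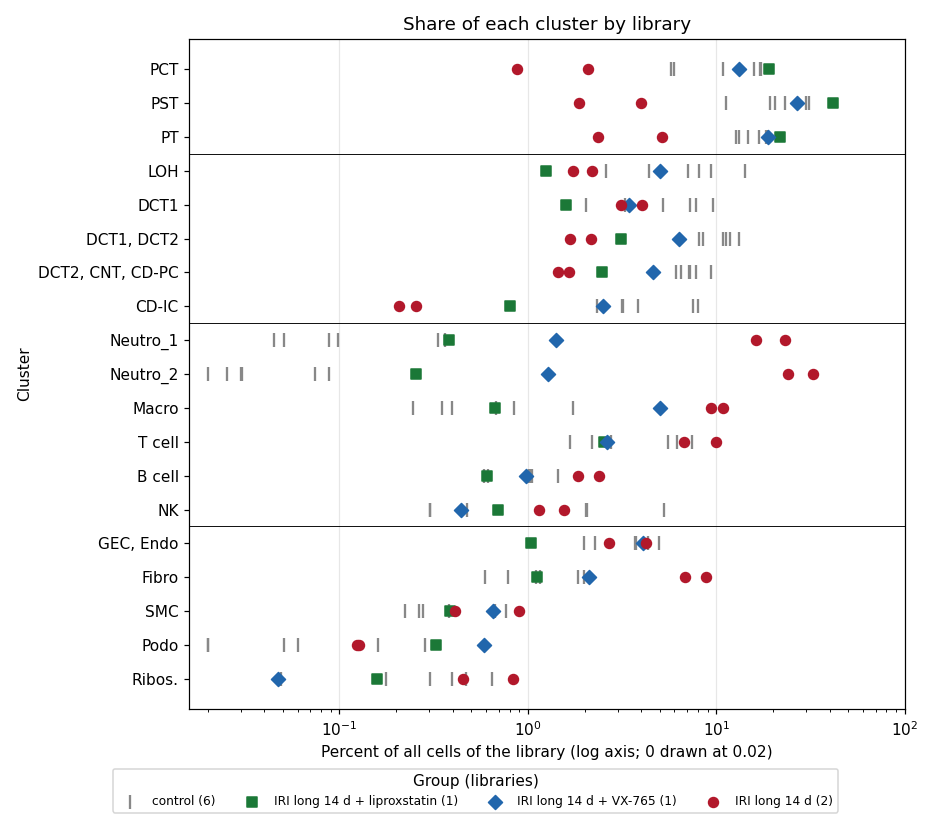
Each row is a cluster and each symbol a library, with the percent of all cells on a log axis (0 is drawn at 0.02). The VX-765 library lies to the right of both IRI long 14 d libraries in 8 clusters and to the left in 8, and it is above all control and IRI long 14 d libraries in the PT and Podo clusters and below all of them in Ribos.

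The 3 PT clusters differ by segment. PCT, the convoluted first segment, where most glucose and amino acids are taken up, made up 13.2% of the VX-765 library (1405 cells), 0.879% of IRF12 (62 cells) and 2.08% of IRF9 (150 cells). The logit change was 2.40 with a standard error of 0.70 (limma adjusted p = 0.0110), and the share lay within the 5.72 to 17.2% of the control libraries. PST, the straight segment that reaches into the outer medulla, was the largest cluster after VX-765 with 26.7% (2836 cells), against 1.87% in IRF12 (132 cells) and 3.97% in IRF9 (287 cells). It changed by 2.56 on that scale (standard error 0.52, limma adjusted p = 0.00299), the lowest p of the 19 clusters, and its share was 9.15-fold the mean of the IRI long 14 d libraries. The cluster named PT without a segment held 18.8% after VX-765 (1999 cells), 2.36% in IRF12 (166 cells) and 5.17% in IRF9 (374 cells). Its logit change was 1.85 with a standard error of 0.52 (limma adjusted p = 0.0110), and its share was above every control library, the highest of which had 18.5%. Per non-immune cell the changes were smaller and none of the 3 passed. They were 1.30 for PCT, 1.45 for PST (limma adjusted p = 0.0559) and 0.71 for the unsegmented cluster. Without IRF12, PCT (1.97) and the unsegmented cluster (1.45) no longer passed, both with limma adjusted p = 0.0677, whereas PST did (2.18, limma adjusted p = 0.0225).

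Within the PT compartment the order of the clusters changed. The unsegmented cluster was the largest of the 3 in both IRI long 14 d libraries, with 46.1% of PT cells in each, and made up 32.0% after VX-765, a value inside the control range of 27.7 to 36.4%. In IRI short at 14 d it was 41.1 and 49.0%. PST made up 45.4% of PT cells after VX-765, against 36.7% in IRF12 and 35.4% in IRF9, and PCT 22.5% against 17.2 and 18.5%. None of these differences passed (limma adjusted p = 0.201 for the unsegmented cluster, 0.437 for PST and 0.592 for PCT).

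The unsegmented PT cluster did not hold the same kind of cells in every group. In the authors' earlier annotation, 67.5% of its cells in IRF12 and 68.7% in IRF9 carry an immune name, mostly T cell_2, and 32.5 and 30.2% a PT name, while in the 6 control libraries 76.3 to 99.6% carry a PT name. The VX-765 cells have no earlier name, so each cell of every library was given the most frequent earlier name among its 30 nearest cells of the other libraries without inhibitor in the UMAP. By this measure 6.95% of the unsegmented cluster after VX-765 had immune neighbours, against 46.4% in IRF12, 45.7% in IRF9 and 6.30 to 16.3% in control. Cells of the VX-765 library in this cluster were surrounded by PT S3 in 50.8% and by PT S1 in 42.1%. For the 18 libraries with an earlier name this transfer gave back the compartment in 89.6 to 96.4% of the cells and the name in 76.9 to 88.3%. In the unsegmented cluster it found fewer immune cells than the earlier names, with 46.4 against 67.5% in IRF12 and 45.7 against 68.7% in IRF9. Leaving out cells by their neighbours thus kept some cells with an immune name in these libraries. For VX-765 this could not be checked. Leaving out PT cells with immune neighbours gave PT shares of 57.5% after VX-765, 4.01% in IRF12 and 8.85% in IRF9, and leaving out the whole unsegmented cluster gave 40.0, 2.75 and 6.05%. With that cluster left out, the PT change was 2.75 (standard error 0.54, limma adjusted p = 0.000207).

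Among the other tubule clusters, CD-IC, the intercalated cells of the collecting duct that secrete acid or base, showed the largest relative difference. It held 2.52% of the cells after VX-765 (267 cells), 0.255% of IRF12 (18 cells) and 0.207% of IRF9 (15 cells), a share 10.9-fold the mean of both. The logit change was 2.39 (standard error 0.56, limma adjusted p = 0.00442), and the VX-765 value was above all 12 libraries with ischemia alone and at the lower end of the control range of 2.34 to 7.99%. The cluster passed without IRF12 and without IRF9 as well. It did not pass on the arcsine square root scale (limma adjusted p = 0.0569) or as a share of non-immune cells (1.29, limma adjusted p = 0.139). Among IRI long 14 d cells of this cluster 57.6% were named IC earlier, and after VX-765 92.1% had IC neighbours. By transferred names IC had a logit change of 2.57 (limma adjusted p = 0.00195).

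The cluster named DCT1, DCT2, after the distal convoluted tubule where thiazide-sensitive salt uptake takes place, rose from 1.67% in IRF12 and 2.17% in IRF9 to 6.34% after VX-765 (logit change 1.25, standard error 0.40, limma adjusted p = 0.0174). Its cells mostly went against that name. In the earlier annotation 53.8% of those of IRI long 14 d and 76.0% of those of control were LOH, the loop of Henle. After VX-765 77.6% had LOH neighbours and 20.5% DCT neighbours. The cluster DCT2, CNT, CD-PC, which joins late distal and connecting tubule with principal cells that take up sodium and water, was 1.45% in IRF12, 1.66% in IRF9 and 4.62% after VX-765 (1.12, standard error 0.43, limma adjusted p = 0.0370). Both shares remained below every control library, the lowest of which had 8.08 and 6.11%. LOH, the loop of Henle, had 1.73% in IRF12, 2.20% in IRF9 and 5.03% after VX-765, and did not pass (0.98, limma adjusted p = 0.180). Per non-PT cell all 3 passed, with changes of 2.15, 1.99 and 1.86. Per non-immune cell the changes were 0.12, −0.0020 and −0.15. Without IRF12 the first 2 no longer passed (limma adjusted p = 0.0695 and 0.105), and without IRF9 DCT2, CNT, CD-PC did not (0.0867).

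DCT1 was the only other tubule cluster not above both IRI long 14 d libraries after VX-765, with 3.43% against 4.01% in IRF12 and 3.11% in IRF9 (logit change −0.03, limma adjusted p = 0.958). Within the other tubule compartment it made up 15.6% after VX-765, against 44.0% in IRF12 and 33.3% in IRF9, and 8.39 to 20.3% in control. The name did not describe these cells alike in the groups. In the earlier annotation 85.9% of the DCT1 cells of IRF12 and 38.7% of those of IRF9 carry a PT name, mostly PT S3, whereas their UMAP neighbours carried a PT name in 5.30 and 10.2%. After VX-765 PT neighbours made up 19.5% and DCT neighbours 78.3%, so the transfer could not settle how many VX-765 cells of DCT1 would have had a PT name.

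Within the other tubule compartment CD-IC was 11.5% after VX-765 against 2.80% in IRF12 and 2.22% in IRF9. DCT1, DCT2 was 28.9% against 18.4 and 23.2%, DCT2, CNT, CD-PC 21.0% against 15.9 and 17.8%, and LOH 22.9% against 18.97 and 23.5%. Of the 14 clusters tested within PT, other tubule and immune cells 0 passed (0% called), and 2 had an unadjusted limma p under 0.05. These were CD-IC with a logit change of 1.60 and DCT1 with −1.22, each with limma adjusted p = 0.0520. The count was 3 on the arcsine scale, 8 when the control libraries did not enter the spread, and 2 to 3 when the control library Scl, norm4 or norm5 was left out.

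**Figure D3:**
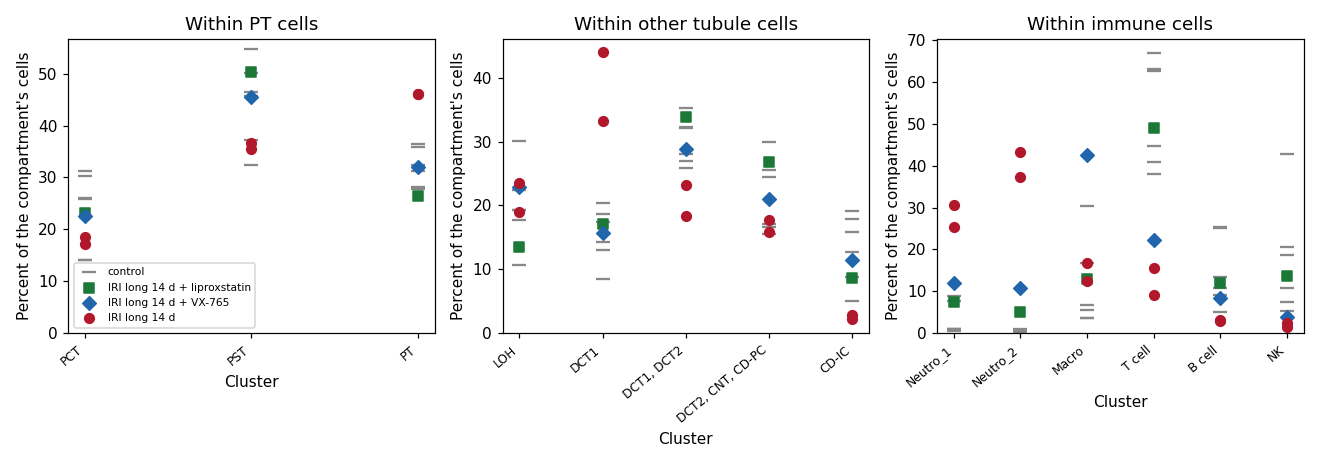
The share of each cluster within its compartment is plotted for each library, in percent of the compartment's cells from 0. After VX-765 DCT1 (15.6%) and the unsegmented PT cluster (32.0%) lie among the control libraries and below both IRI long 14 d libraries, and Macro (42.7%) lies above all other libraries drawn.

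Neutrophils, the short-lived phagocytes that enter injured tissue first, had the largest fold decreases of the 19 clusters in the share of all cells. Neutro_1 held 1.41% of the cells after VX-765 (150 cells), 23.0% of IRF12 (1623 cells) and 16.3% of IRF9 (1177 cells), a 13.9-fold lower share (logit change −2.82, standard error 0.67, limma adjusted p = 0.00442). Neutro_2 held 1.27% (135 cells) against 32.5% in IRF12 (2294 cells) and 24.0% in IRF9 (1737 cells), a 22.2-fold lower share (−3.41, standard error 0.98, limma adjusted p = 0.0110). Both remained above every control library, the highest of which had 0.363 and 0.0880%. Per immune cell the differences were smaller and neither passed. Neutro_1 was 12.0% of immune cells after VX-765, against 30.6% in IRF12 and 25.2% in IRF9 (−1.04, limma adjusted p = 0.437). Neutro_2 was 10.8% of them, against 43.3 and 37.3% (−1.71, limma adjusted p = 0.201). Neutro_2 made up 47.4% of the neutrophils after VX-765, against 58.6% in IRF12 and 59.6% in IRF9. In the earlier annotation 97.3% of Neutro_1 cells of IRI long 14 d were named Granul_1, and 90.6% of Neutro_2 cells Granul_2. PT S3 was the earlier name of 2.39% of these Neutro_1 cells (67 cells) and 6.40% of these Neutro_2 cells (258 cells). Tubule names made up 10.2% of Neutro_2 in IRF12 and 1.67% in IRF9. After VX-765 100% of the cells of both clusters had Granul neighbours, but they have no earlier name to compare. Without IRF12 Neutro_2 no longer passed (limma adjusted p = 0.0677), and Neutro_1 did (0.0344).

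Macro, the macrophages that clear debris and take part in both inflammation and repair, moved less. The cluster held 5.02% of the cells after VX-765 (533 cells), 9.39% of IRF12 (662 cells) and 10.8% of IRF9 (783 cells), and the difference did not pass (logit change −0.75, 95% interval −1.99 to 0.49, limma adjusted p = 0.274). It passed on the arcsine scale (limma adjusted p = 0.0333). Per non-PT cell Macro was 12.2% after VX-765, between the 9.90% of IRF12 and the 12.2% of IRF9 (0.12, limma adjusted p = 0.898). Among immune cells it was the largest cluster after VX-765 with 42.7%, against 12.5% in IRF12 and 16.8% in IRF9, and above all 18 libraries without inhibitor (1.48, limma adjusted p = 0.201). The highest of the other libraries at 14 d or without ischemia were the IRI short libraries, with 31.2 and 32.7%. The ratio of macrophages to neutrophils was on the opposite side of 1 after VX-765, with 533 Macro cells to 285 neutrophils, against 662 to 3917 in IRF12 and 783 to 2914 in IRF9.

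Of the lymphoid clusters none passed with all 20 libraries in the fit, while T cells (limma adjusted p = 0.0156) and NK cells (limma adjusted p = 0.022) passed, both lower, when the control libraries were left out. T cells were 2.63% after VX-765, 6.75% in IRF12 and 9.95% in IRF9 (logit change −1.20, limma adjusted p = 0.0914). B cells, which make antibodies, were 0.980%, 2.38% and 1.85% (−0.77, limma adjusted p = 0.162). NK cells, cytotoxic lymphocytes of the innate arm, were 0.443%, 1.15% and 1.55% (−1.11, limma adjusted p = 0.283), and 89.6% of the NK cells of IRI long 14 d were named T cell_1 in the earlier annotation. All 3 shares lay below both IRI long 14 d libraries and inside the control range. Per immune cell they lay above both, with T cells at 22.4% against 8.97 and 15.4%, B cells at 8.33% against 3.17 and 2.87%, and NK cells at 3.77% against 1.53 and 2.40%.

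The clusters named for endothelial and stromal cells behaved differently from each other. GEC/Endo, the glomerular and other endothelial cells that line the vessels, was 4.08% after VX-765, 2.70% in IRF12 and 4.26% in IRF9 (logit change 0.19, limma adjusted p = 0.740). SMC, named for smooth muscle cells, was 0.650% after VX-765, 0.411% in IRF12 and 0.899% in IRF9 (0.06, limma adjusted p = 0.958), although 80.9% of the SMC cells of IRI long 14 d had an immune name earlier. Fibro, named for fibroblasts, the matrix-producing cells of the interstitium, fell to 2.12% (225 cells) from 6.85% in IRF12 (483 cells) and 8.83% in IRF9 (638 cells), with a change of −1.36 on the logit scale (standard error 0.51, limma adjusted p = 0.0345). The cells of Fibro went against that name in the earlier annotation, where 96.1% of those of IRI long 14 d were Mono_1, a monocyte cluster, and 0% had an endothelial or stromal name. After VX-765 94.7% of the Fibro cells had Mono_1 neighbours. Counted with the myeloid cells, Fibro brought these to 9.83% after VX-765 against 71.8 and 59.97% (logit change −2.89, limma adjusted p = 2.14e-06), and endothelial or stromal cells were then 4.73% against 3.11 and 5.16% (0.17, limma adjusted p = 0.685). Without IRF12 (−1.50) or IRF9 (−1.22) Fibro no longer passed, with limma adjusted p = 0.0677 and 0.117.

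The 2 remaining clusters were small. Podo, the podocytes of the glomerular filter, had 62 cells after VX-765 (0.584%, interval 0.448 to 0.748) and 9 cells in each IRI long 14 d library (0.128% in IRF12 and 0.124% in IRF9). This share was above those of all 18 libraries without inhibitor, and the difference did not pass (logit change 1.49, limma adjusted p = 0.250). Ribos., named for ribosomal genes, had 5 cells after VX-765 (0.0471%, interval 0.0153 to 0.110), 32 in IRF12 (0.454%) and 60 in IRF9 (0.830%). It was lower than in all 18 libraries without inhibitor (−2.49, standard error 0.91, limma adjusted p = 0.0345), and 97.8% of its cells in IRI long 14 d were T cell_2 earlier. Without IRF12 or IRF9 it no longer passed (limma adjusted p = 0.0677 and 0.117).

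**Figure D4:**
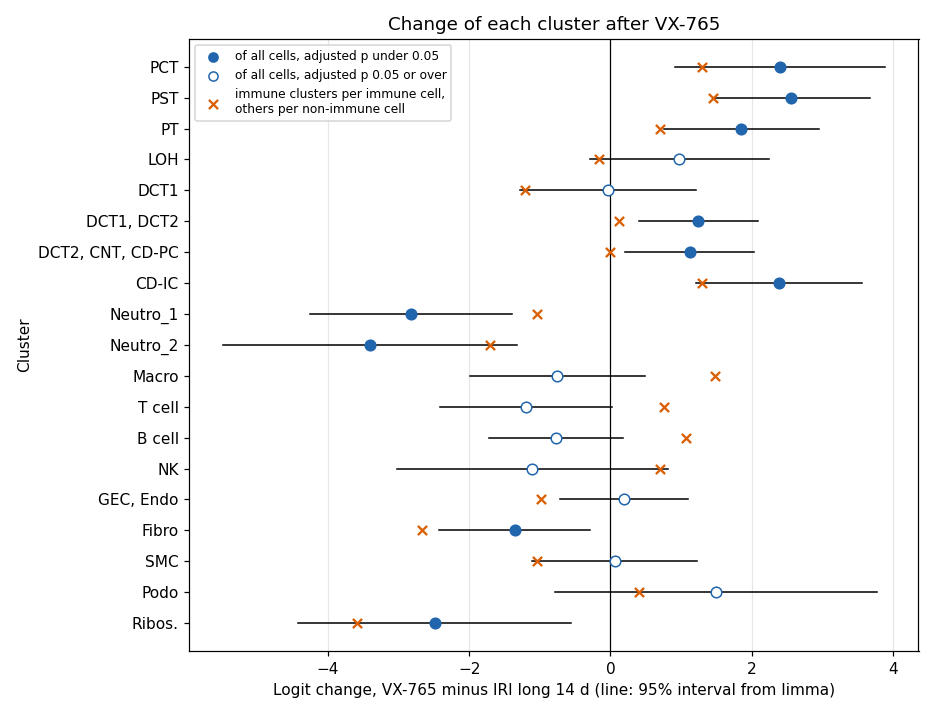
For each cluster the circle gives the limma logit change of the share of all cells, VX-765 minus IRI long 14 d, and the line its 95% interval. Filled circles passed an adjusted p of 0.05 (6 higher, 4 lower), and crosses give the change with immune clusters per immune cell and the others per non-immune cell, for which Macro lies at 1.48 and PST at 1.45.

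Against control kidneys 3 of 19 clusters passed (15.8% called), all of them myeloid and higher after VX-765. On the arcsine scale only Macro passed. The control libraries held 10 Neutro_2 cells in all, with 0 in Scl, so its logit changes against control rest in part on the 0.5 cells added. Macro had a logit change of 2.20 (standard error 0.51), Neutro_1 of 2.39 (0.59) and Neutro_2 of 3.61 (0.87), each with limma adjusted p = 0.00614. Macro was 5.02% after VX-765 against 0.244 to 1.75% in control, and all myeloid cells together 7.71% against 0.528 to 1.82% (2.29, limma adjusted p = 0.000231), the 1 compartment of 6 that passed (16.7% called). In all, the VX-765 share was inside the control range in 10 clusters, above it in 6 and below it in 3. PT and immune shares were inside it, with 34.9 to 66.7% and 4.07 to 12.4% in control. Among immune cells Neutro_2 (3.22, limma adjusted p = 0.00721) and Macro (2.10, limma adjusted p = 0.0349) were again higher than in control, and T cells were lower, at 22.4% against 38.2 to 67.0% (−1.36, limma adjusted p = 0.0349). Without norm3 neither Macro nor T cells passed there (both limma adjusted p = 0.0551), and with Fibro counted as immune T cells did not (limma adjusted p = 0.0651). As a share of all cells T cells had not passed (−0.36, limma adjusted p = 0.697). Of the 6 control libraries, 5 share cell barcodes with the VX-765 library in at most 3 cases (0.0283% of the smaller library), while norm5, the IRI and the liproxstatin libraries share 9 to 41 (0.241 to 0.438%). Among themselves the 5 share 9 to 128 barcodes (0.396 to 2.20%). Apart from norm5, being control and belonging to this set cannot be told apart in the control ranges and tests. The 5 libraries also enter the spread of every fit that includes control. Against norm5 alone 4 clusters passed, namely these 3 and NK, which was lower.

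Liproxstatin, which blocks the lipid peroxidation of ferroptosis, was compared with VX-765 at the same time after ischemia, at 10 against 100 mg/kg. It was set against the same IRI long 14 d libraries. PT cells were 82.6% after liproxstatin and 58.8% after VX-765, immune cells 5.13 and 11.8%, and other tubule cells 9.25 and 21.9%. Among non-PT cells, immune cells were 29.5% after liproxstatin and 28.6% after VX-765, and other tubule cells 53.1 and 53.3%. Myeloid cells were 7.47 and 18.7% of the non-PT cells, and lymphoid cells 22.0 and 9.84%. VX-765 had the higher share of all cells in 14 of the 19 clusters. In the direct test 0 of 19 clusters passed (0% called), and Macro (logit difference 2.06) and GEC/Endo (1.40) were the 2 clusters at an unadjusted p under 0.05, both with limma adjusted p = 0.117. Macro was 5.02% after VX-765 and 0.666% after liproxstatin, and GEC/Endo 4.08 and 1.04%. Among the 6 compartments 2 passed (33.3% called). Myeloid cells were 7.71% after VX-765 and 1.30% after liproxstatin (1.84, 95% interval 0.71 to 2.98, limma adjusted p = 0.01998), and endothelial or stromal cells 6.85 and 2.55% (1.03, interval 0.31 to 1.76, limma adjusted p = 0.0245). The PT difference did not pass (−1.20, interval −2.64 to 0.23, limma adjusted p = 0.143). Neither passed when the Fibro cluster was counted as myeloid (1.48 and 1.23, both limma adjusted p = 0.0506), when shares were 9.83 and 2.42% for myeloid cells and 4.73 and 1.43% for endothelial or stromal cells, and neither passed on the arcsine square root scale (both limma adjusted p = 0.178), with all 6 IRI long libraries as 1 group (0.0604 and 0.226) or per non-PT cell (0.121 and 0.990). Without control libraries endothelial or stromal cells did not pass (limma adjusted p = 0.0582). Each inhibitor has 1 library, neither of which adds to the estimate of the spread, so these tests compare 2 libraries against the spread of the other groups and not the inhibitors.

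Cells can also shift within a cluster. For each cluster a reference was drawn with equal numbers of control and IRI long 14 d cells, and the percent of control cells among the 30 nearest reference cells in the UMAP was averaged over the VX-765 cells. The same was done for the other libraries, each with its own cells left out of the reference. Cells of IRF9 thus met IRI long 14 d cells of IRF12 only, and the reverse. References therefore differed in size and make-up between the libraries compared. The UMAP has no unit and was made after the authors' integration of the libraries, and no test was made. In the unsegmented PT cluster this was 60.6% after VX-765, against 38.8 and 41.8% in the IRI long 14 d libraries, 38.8 and 44.2% in IRI short at 14 d and 57.9 to 63.0% in control. The liproxstatin value was 60.8%. Since this is the cluster in which the IRI long 14 d cells mostly carry an immune name, the position and the names moved together, and their parts were not tested. In PCT it was 51.7% (IRI long 14 d 43.0 and 43.5%) and in PST 51.3% (45.4 and 46.9%). DCT1, DCT2 had 52.9% (43.8 and 44.5%), GEC/Endo 53.0% (43.7 and 45.7%) and T cells 51.0% (45.6 and 46.4%). The VX-765 value was above both IRI long 14 d libraries in 10 of 14 clusters. It was at or above the lowest control library in 13 of the 16 clusters with at least 30 VX-765 cells and enough reference cells. With 15 neighbours this count was 12 of 16, and with 60 it was 11 of 15. In PST, B cells, NK cells and Neutro_1 both IRI long 14 d libraries were also at or above the lowest control library. There the count cannot mark a position like control, and Neutro_1 had a value for only 1 control library. In Macro the VX-765 value was 48.7%, above IRI long 14 d (45.8 and 47.7%) and below the lowest control library (49.5%). In B cells it was 47.0%, below both IRI long 14 d libraries (48.6 and 49.3%).

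**Figure D5:**
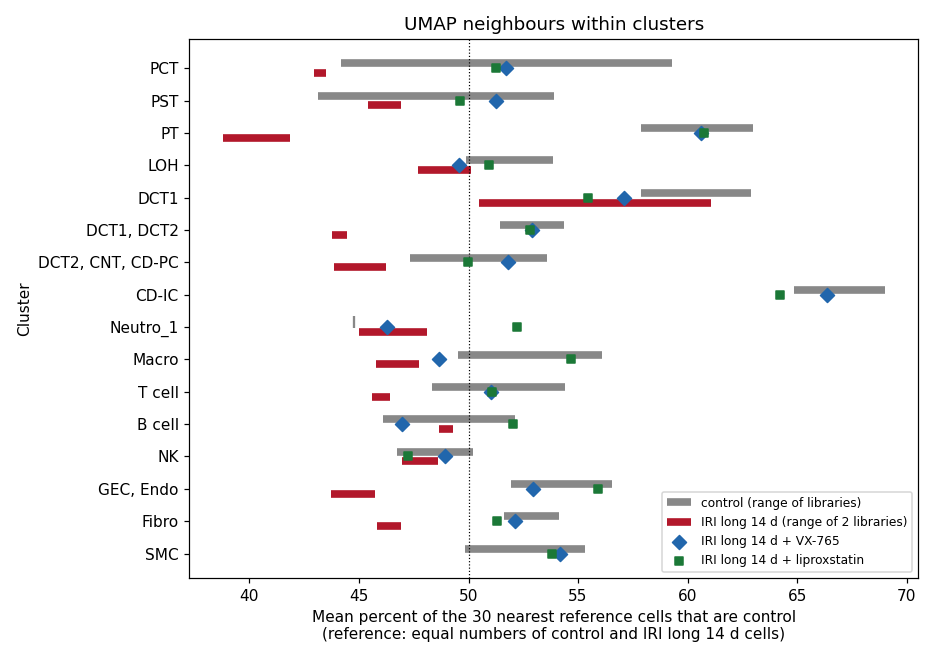
For each cluster the horizontal axis gives the mean percent of control cells among the 30 nearest reference cells (50 for an even mix), with grey and red bars for the range of the control and the IRI long 14 d libraries. In the unsegmented PT cluster VX-765 (60.6%) and liproxstatin (60.8%) lie within the control range and right of IRI long 14 d (38.8 to 41.8%).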

How the data were processed

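Single-cell suspensions of whole kidneys were sequenced, by the authors' methods with 10X 3′ v3 chemistry. Whether this holds for the control libraries Scl and norm1 to norm4, which share at most 3 barcodes with the VX-765 library, was not tested. The authors aligned reads with Cell Ranger (build mm10/GRCm38 per the labels), kept cells within limits on gene number and mitochondrial share, took out doublets with DoubletFinder, integrated libraries with LIGER and named clusters by hand, and they used results without ambient RNA correction. For every cell a cluster, a group with its day and UMAP coordinates were deposited, the coordinates used here as a score without unit; the names and groups are other, non-numeric values deposited by the authors. No UMI counts were used here, and cell number stands for depth. How the second annotation, with 136794 cells and 19 clusters, was made is described in the sources used here only for a dataset of another size.

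Libraries were identified by the shared part of cell names and grouped by their cells' labels. Shares per library were given with exact 95% Clopper-Pearson intervals. limma 3.58.1 in R 4.3.3 (trend off) was fitted to logit shares with 0.5 cells added, with 20 libraries, 9 group means and 11 residual degrees of freedom, with two-sided Benjamini-Hochberg adjustment over 19 clusters, 6 compartments or 14 clusters within compartments and a threshold of 0.05. Its code was tested on simulated data. Compartments were set by cluster name. PT was PCT, PST and PT; other tubule was LOH, DCT1, DCT1/DCT2, DCT2/CNT/CD-PC and CD-IC; endothelial or stromal was GEC/Endo, Fibro and SMC; myeloid was Neutro_1, Neutro_2 and Macro; lymphoid was T, B and NK cells. Podo and Ribos. stayed in the denominator only. A fold is the VX-765 share over the mean of the 2 IRI long 14 d shares, or its inverse. All 19 clusters are named. Against liproxstatin and control, those past the threshold or over 2-fold apart could be named.

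Neighbours were the 30 nearest cells in the UMAP, with a least number of 30 cells per library and cluster and a fixed seed for the reference. Further tools were scikit-learn 1.9.0 and scipy 1.17.1 on python 3.11.15, pandas 2.3.3 with numpy 2.4.6, and matplotlib 3.10.9. Alternatives were the arcsine and centred log-ratio scales, other denominators, 0.1 or 1 cell added, a filter of 10 cells in 2 libraries, no control libraries, all 6 IRI long libraries as reference, the earlier names by neighbours, Fibro as myeloid, each library left out, and 15 or 60 neighbours. Added after seeing the data were clusters and compartments per non-PT cell, the unsegmented PT cluster left out, Fibro among immune clusters, norm5 as the only control, and all alternatives for compartments against liproxstatin and for compartments and clusters within them against control. The members and lists were chosen with earlier results of these data known. Replicates are libraries of separate samples by the labels. The p-values use the spread between libraries in the groups with 2 or more, and hold no spread of VX-765 or liproxstatin, with 1 library each.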

Additional observations from a re-analysis of the deposited data

Results flagged for a closer look

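Myeloid cells differed between the VX-765 and the liproxstatin library by a logit difference of 1.84 in the direct test (limma adjusted p = 0.01998), with shares of 7.71 and 1.30%. Endothelial or stromal cells differed by 1.03 (limma adjusted p = 0.0245), with shares of 6.85 and 2.55%, or 4.73 and 1.43% without Fibro. With Fibro counted as myeloid neither passed (1.48 and 1.23, both limma adjusted p = 0.0506), nor did either on the arcsine square root scale (both limma adjusted p = 0.178). Each inhibitor has 1 library, so the test compares these libraries and not the inhibitors.

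NK cells made up 5.30% of the control library norm5, far from the other 5 control libraries (0.303 to 2.07%). Of the 25 control groups examined this way, 1 stood out, and chance alone would mark about 1 in 20. The NK share after VX-765, 0.443%, was inside the control range with and without norm5.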

How the results depend on the processing

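The number of clusters that differed between VX-765 and IRI long 14 d by limma was 10 of 19. It was 2 with immune clusters per immune cell and others per non-immune cell, 5 of 16 with non-PT clusters per non-PT cell, and 3 to 10 with each library left out (3 without IRF12, 7 without IRF9). It was 13 without control libraries, where Macro, NK and T cell were added. On the arcsine scale it was 8, with CD-IC, Ribos. and DCT2, CNT, CD-PC lost and Macro added. With all 6 IRI long libraries it was 8, with DCT1, DCT2 and DCT2, CNT, CD-PC lost. Compartments passed in 3 of 6 cases, in 5 without control libraries, in 5 with earlier names by neighbours, and in 3 to 4 with each library left out. Within compartments the count was 0, with 3 on the arcsine scale, 8 without control libraries and 0 to 3 with each library left out. Against liproxstatin it was 0 to 1 with each library left out (Macro passed without norm1). Against control it was 3, 1 on the arcsine scale and 3 to 4 with each library left out. The cause of these differences was not tested. No paired analysis was possible because the library names in the tables carry no replicate number. Cell numbers limit small clusters, such as Ribos. and Podo.

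Some changes that had not passed, or no longer passed, turned their sign. Against all 6 IRI long libraries these were DCT1 (0.56), GEC/Endo (−0.67) and SMC (−0.60), and within compartments DCT2, CNT, CD-PC (−0.089) and LOH (−0.52). Per immune or non-immune cell they were B cell (1.07), DCT2, CNT, CD-PC (−0.0020), GEC/Endo (−0.98), LOH (−0.15), Macro (1.48), NK (0.70), SMC (−1.04) and T cell (0.76). Per non-PT cell they were B cell (0.041), DCT1 (0.82) and Macro (0.12). Fibro turned when it was counted among immune cells and taken per immune cell (0.48). Endothelial or stromal cells turned with earlier names (0.22), with Fibro as myeloid (0.17) and per non-PT cell (0.30). On the centred log-ratio scale B cell (−0.087), SMC (−0.047) and T cell (−0.52) turned against liproxstatin, and B cell (−0.32), GEC/Endo (−0.19), PCT (−0.20), PST (−0.17) and PT (−0.20) against control. Against norm5 alone CD-IC (0.073) and SMC (−0.17) did. With each library left out, the ranges that crossed 0 were −0.16 to 0.10 for DCT1, −0.045 to 0.43 for GEC/Endo, −0.33 to 0.45 for SMC and −0.034 to 0.24 for LOH within its compartment. Against control B cell ranged from −0.023 (without Scl) to 0.16, and was also below 0 without norm5.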
